A study of Homo sapiens with 18 samples.

Results

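The chromosome 11q13 stretch described here runs over 2 Mb, chr11:64000001-66000000 in hg38, and was selected on the peak lists themselves because it is dense in AML1-ETO peaks. Its members are all peaks that start there in 7 lists deposited by the authors: 148 control anti-ETO, 373 control anti-Flag, 293 knockdown anti-ETO and 682 knockdown anti-Flag peaks, and 118 shared, 10 control-unique and 108 knockdown-unique peaks. These are 1732 of the 102388 peaks in the 7 lists. Merging the 4 single-antibody lists wherever peaks overlapped by at least 1 bp gave 708 regions in the stretch, out of 35622 in the genome. By the number of merged regions the stretch ranked 1 among the 1215 windows of 2 Mb that held any, whose median was 9 regions. It also ranked 1 for both anti-Flag lists. It ranked 2 for both anti-ETO lists, shared peaks and knockdown-unique peaks, and 24 for control-unique peaks, each among the windows with any such peak. These ranks restate how the stretch was chosen and are no finding.

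All libraries were CUT&RUN profiles of Kasumi-1, an established acute myeloid leukaemia line with the t(8;21) translocation, here in a version that expresses AML1-ETO with a Flag tag. The cells were transduced, either as control or for knockdown (KD) of the microRNA miR-130a, and GFP-positive viable cells were sorted 72 hours (3 days) later, with 200000 cells per condition. Each condition was profiled with an antibody against ETO, an antibody against Flag and mouse IgG, 3 libraries each, so that the 18 libraries form 6 groups. Both conditions carry the Flag-tagged fusion and the transduction, and the labels used here name neither the vector nor the control sequence. All results rest on this 1 cell line. Peaks came as 1 list per antibody and condition with positions only: no height, depth or value per library is known, no spread between libraries could be computed, and no test was run. No IgG peak list was used here. Ranges in parentheses are 95% Wilson intervals over peaks, which cover counting error only.

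AML1-ETO joins the DNA-binding Runt domain of RUNX1 (AML1), a transcription factor of blood cell development, to most of RUNX1T1 (ETO), a corepressor. The fusion binds RUNX sites, often beside other blood transcription factors such as ETS and E-box proteins, and is known in this leukaemia for changing transcription of myeloid genes. CUT&RUN maps such binding with a nuclease that an antibody holds at the protein of interest, followed by sequencing of the short DNA pieces cut out around it. An anti-ETO antibody can recognise the tagged fusion, the untagged fusion of the translocation and RUNX1T1 itself, whereas an anti-Flag antibody is directed at the tag. The 11q13 band is rich in short genes, and holds blood cell signalling genes, the NF-kappa-B subunit gene RELA and the long noncoding RNA genes NEAT1 and MALAT1.

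The sequences of 6 gene starts are shown because each carries a peak of one of the derived lists. Each sequence is the window from 250 bases before to 50 bases after a start in RefSeq (GRCh38.p14), written 5′ to 3′ on the gene's strand. Capitals mark every match, on either strand, to TGTGGT or TGCGGT (RUNX), CCGGAAG (ETS), CAGGTG or CAGCTG (E-box), GGGCGG (SP) and TGANTCA (AP-1). Matches of the same motif may overlap each other, and then form 1 run of capitals.
FERMT3, chr11:64206471-64206770, plus strand, inside a shared peak: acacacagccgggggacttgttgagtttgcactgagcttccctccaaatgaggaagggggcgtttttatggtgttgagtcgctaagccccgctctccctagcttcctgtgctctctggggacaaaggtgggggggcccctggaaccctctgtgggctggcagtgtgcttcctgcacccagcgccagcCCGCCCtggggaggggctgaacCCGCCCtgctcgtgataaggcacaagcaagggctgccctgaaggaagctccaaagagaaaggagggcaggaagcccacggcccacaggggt
PLCB3, chr11:64251280-64251579, plus strand, inside a shared peak: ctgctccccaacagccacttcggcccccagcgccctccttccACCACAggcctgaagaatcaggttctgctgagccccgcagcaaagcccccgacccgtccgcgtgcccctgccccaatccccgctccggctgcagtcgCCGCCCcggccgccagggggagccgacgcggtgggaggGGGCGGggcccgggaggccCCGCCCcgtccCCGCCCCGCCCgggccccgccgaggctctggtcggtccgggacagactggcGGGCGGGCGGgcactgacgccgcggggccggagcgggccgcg
SIPA1, chr11:65637851-65638150, plus strand, inside a shared peak: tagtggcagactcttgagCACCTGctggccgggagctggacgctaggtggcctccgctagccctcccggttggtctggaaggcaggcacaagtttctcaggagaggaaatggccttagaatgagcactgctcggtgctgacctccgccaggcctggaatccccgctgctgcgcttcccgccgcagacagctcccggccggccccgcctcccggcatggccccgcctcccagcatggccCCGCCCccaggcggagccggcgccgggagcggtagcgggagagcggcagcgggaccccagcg
RASGRP2, chr11:64745299-64745598, minus strand, inside a shared peak: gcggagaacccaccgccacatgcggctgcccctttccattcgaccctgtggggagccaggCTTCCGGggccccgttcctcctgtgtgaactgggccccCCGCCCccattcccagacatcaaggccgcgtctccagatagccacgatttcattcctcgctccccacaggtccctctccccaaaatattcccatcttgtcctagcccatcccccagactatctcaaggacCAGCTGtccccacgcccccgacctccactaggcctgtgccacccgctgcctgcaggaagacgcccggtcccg
RELA, chr11:65663808-65664107, minus strand, overlapped by a control-unique peak: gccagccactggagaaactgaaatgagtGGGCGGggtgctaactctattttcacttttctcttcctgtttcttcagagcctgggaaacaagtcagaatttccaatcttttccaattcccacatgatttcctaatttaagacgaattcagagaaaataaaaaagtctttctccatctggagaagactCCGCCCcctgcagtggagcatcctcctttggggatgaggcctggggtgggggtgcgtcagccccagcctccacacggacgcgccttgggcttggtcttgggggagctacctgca
VEGFB, chr11:64234334-64234633, plus strand, overlapped at its first bases by a knockdown-unique peak: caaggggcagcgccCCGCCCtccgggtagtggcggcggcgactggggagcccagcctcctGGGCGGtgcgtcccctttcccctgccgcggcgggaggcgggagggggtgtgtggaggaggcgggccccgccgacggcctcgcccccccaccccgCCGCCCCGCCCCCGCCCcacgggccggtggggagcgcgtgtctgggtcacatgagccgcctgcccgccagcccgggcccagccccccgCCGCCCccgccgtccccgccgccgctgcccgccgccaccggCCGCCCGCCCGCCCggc

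The windows differed in GC content and in the number of SP matches. FERMT3 (kindlin-3, which activates integrins in blood cells) has 2 SP matches and 62.7% GC. PLCB3, a phospholipase C of G-protein signalling, holds the single RUNX match among the 6, written here as ACCACA on the opposite strand, with 7 SP matches and 79.3% GC. RASGRP2, an exchange factor for the small GTPase RAP1 in platelets and leukocytes, has 1 ETS and 1 E-box match, and SIPA1, a GTPase-activating protein for RAP1, has 1 E-box match. The RELA window has 2 SP matches and 51.3% GC, and the VEGFB window 9 SP matches and 84.7% GC. At VEGFB a control anti-Flag peak of 263 bp also reached the window, without an anti-ETO peak in either condition.

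Letter counts over all start windows place these examples. Using the first listed window of each gene, GGGCGG was in 80.7% of the 88 genes of the stretch that have a window and in 44.7% of all 27195 genes. CCGGAAG was in 21.6% of the stretch and 10.7% of all. Of the RUNX and E-box letters, only TGCGGT was more frequent in the stretch than over all genes, and these differences were not tested. A RUNX match of either spelling was in 15.9% of the stretch and 19.4% of all. TGTGGT was in 7.95% against 13.1% and TGCGGT in 9.09% against 7.12%. CAGGTG was in 19.3% against 20.6% and CAGCTG in 15.9% against 17.7%. The AP-1 letters TGANTCA were in 4.55% against 7.73%. The windows of the stretch were also richer in G and C, with a median GC content of 67.7% against 58.3% over all windows. Among starts elsewhere in the genome that lay in a shared peak, GGGCGG was in 76.2%, CCGGAAG in 17.7% and a RUNX match in 23.1%, with a median GC content of 67.7%. In the 61 genes of the stretch whose start lay in a shared peak, the 3 shares were 85.2%, 24.6% and 19.7%. A match is a description of letters and shows no binding.

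Across the 2 Mb the knockdown lists held more peaks than the control lists with both antibodies. The anti-ETO count was 293 against 148, a ratio of 1.98 (1.63 to 2.41), and the anti-Flag count was 682 against 373, a ratio of 1.83 (1.61 to 2.07). With all 4 lists shortened to the 14264 widest peaks the ratios were 1.28 (1.04 to 1.59) for anti-ETO and 1.76 (1.49 to 2.07) for anti-Flag. The covered length differed in the same direction. Anti-Flag peaks of the knockdown covered 19.4% of the stretch (388 kb), against 11.7% (234 kb) in control. Anti-ETO peaks covered 11.3% (226 kb) in knockdown and 5.55% (111 kb) in control. The stretch held 2.63% (2.44 to 2.83) of all knockdown anti-Flag peaks, the largest share of the 4 single-antibody lists. It held 1.61% (1.46 to 1.78) of control anti-Flag, 1.3% (1.16 to 1.45) of knockdown anti-ETO and 1.04% (0.884 to 1.22) of control anti-ETO peaks. Peak widths were also set beside those in the rest of the genome. Median peak widths in the stretch were 517 bp (control anti-ETO), 408 bp (control anti-Flag), 465 bp (knockdown anti-ETO) and 401 bp (knockdown anti-Flag). In the rest of the genome they were 461, 416, 453 and 363 bp in the same order.

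Other windows with many peaks show how much of this is shared. Among the 81 windows of 2 Mb with at least 100 merged regions, the anti-Flag ratio of the stretch ranked 6, with a window median of 1.42. Its anti-ETO ratio ranked 23, with a window median of 1.83. With 84 protein-coding genes the stretch ranked 8 in the genome by gene number, and its 8.43 merged regions per coding gene ranked 8 among the 81 windows, whose median was 4.0.

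Most regions of the stretch were called by anti-Flag, and the largest class was called in a single list. Of the 708 merged regions, 318 (44.9%, 41.3 to 48.6) were called by knockdown anti-Flag alone, against 22.3% of all regions in the genome. Among the 81 dense windows this share had a median of 31.9% and the stretch ranked 5, so other windows with many peaks held high shares too. A further 119 (16.8%, 14.2 to 19.7) were called in all 4 lists, against 24.8% in the genome. Only knockdown lists called 378 regions (53.4%, genome 37.8%), and only control lists called 37 (5.23%, genome 13.4%). The counts follow from the lists that chose the stretch and are given as a description.

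Counted by antibody, regions called only by anti-Flag, in either or both conditions and with the 318 above included, numbered 431 (60.9%, 57.2 to 64.4), against 35.8% (35.3 to 36.3) in the rest of the genome. Regions called only by anti-ETO numbered 21 (2.97%, 1.95 to 4.49), against 13.6% (13.2 to 13.9). Control anti-Flag alone gave 34 regions, a lower share than elsewhere (4.8%, 3.46 to 6.64, rest 10.3%). Both anti-Flag lists without an anti-ETO call gave 79 regions (11.2%, rest 3.62%), and all lists but control anti-ETO gave 74 (10.5%, rest 7.23%). Control anti-ETO alone called 1 region, chr11:65422930-65423228, at the left end of NEAT1. Regions in all 4 lists were wide, with a median of 1316 bp (rest 1052 bp), whereas regions of knockdown anti-Flag alone had a median of 306 bp (rest 276 bp). A region in all 4 lists joins overlapping peaks of each list, so the merging itself makes it wider than a region of 1 list.

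**Figure D1:**
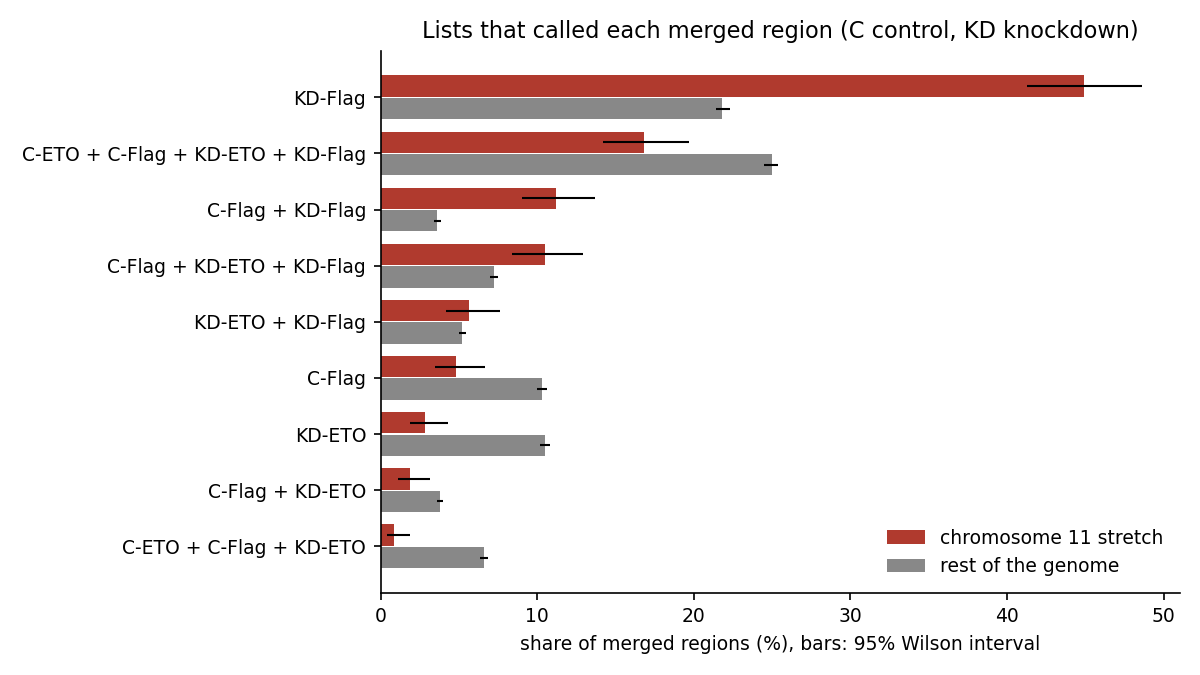
Share of merged regions (x axis, percent) in the 9 most frequent combinations of lists (y axis), for the chromosome 11 stretch (red, 708 regions) and the rest of the genome (grey, 34914 regions); bars at the ends are 95% Wilson intervals over regions. Knockdown anti-Flag alone is the largest class of the stretch at 44.9%, against 21.8% elsewhere, and regions in all 4 lists are at 16.8% against 25.0%.

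The antibodies overlapped unevenly. Nearly every control anti-ETO peak of the stretch lay on a control anti-Flag peak, 146 of 148 (98.6%, 95.2 to 99.6). In knockdown 252 of the 293 anti-ETO peaks did so with anti-Flag (86.0%, 81.6 to 89.5). In the rest of the genome the shares were 89.5% and 62.9%. The difference between conditions in the stretch, knockdown minus control, was -12.6 percentage points (-17.2 to -7.73). With the 4 lists at equal length it was -6.86 (-13.9 to 0.526), an interval that includes 0. Read from the other antibody, an anti-ETO peak was met by 38.1% (33.3 to 43.1) of the anti-Flag peaks in control and by 41.1% (37.4 to 44.8) in knockdown, against 57.8% and 63.7% elsewhere.

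The control and knockdown lists of each antibody were then set against each other. With anti-ETO 144 of 148 control peaks (97.3%) had a counterpart in knockdown, and with anti-Flag 311 of 373 (83.4%, 79.3 to 86.8), against 90.9% and 61.8% elsewhere. In the opposite direction a control counterpart existed for 45.4% of the anti-ETO and 46.5% of the anti-Flag peaks of the knockdown (elsewhere 55.9% and 59.6%). The knockdown lists were longer, with 293 against 148 and 682 against 373 peaks, which by itself limits the shares in this direction. The anti-Flag share of 83.4% ranked 6 among the 81 dense windows, whose median was 68.8%.

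The 118 shared peaks, called by both antibodies in both conditions, had a median width of 1322 bp (rest of the genome 1043 bp). Within them the anti-ETO peaks of the knockdown covered more bases than those of control at 110 of 118 sites (93.2%, rest 81.0%). The covered length had a median of 612 bp for control and of 1144 bp for knockdown, and the median ratio per site was 1.59 (rest 1.26). For anti-Flag, knockdown covered more at 63 and less at 55 sites, with medians of 1062 bp for control and 1079 bp for knockdown, and a median ratio of 1.01 (rest 0.882). Peak width depends on the caller and the depth, which these lists do not give.

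Along the stretch the knockdown lists exceeded the control lists in nearly every bin, while the outlines of the lists differed in places. In 20 bins of 100 kb, knockdown anti-ETO peaks outnumbered control ones in 19 bins and equalled them in 1. Knockdown anti-Flag peaks outnumbered control ones in 19 bins and were fewer in 1, the first. The knockdown lists were also longer over the whole genome, with 22594 against 14264 anti-ETO and 25961 against 23162 anti-Flag peaks. Given the totals of the stretch, the bin counts are no separate evidence. Merged regions per bin ranged from 4 to 54, with a median of 37.5. The bin at 1700 kb, from KAT5 to OVOL1, held 51 knockdown anti-Flag but 4 control anti-ETO peaks, whereas the bin at 200 kb held 41 and 16.

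**Figure D2:**
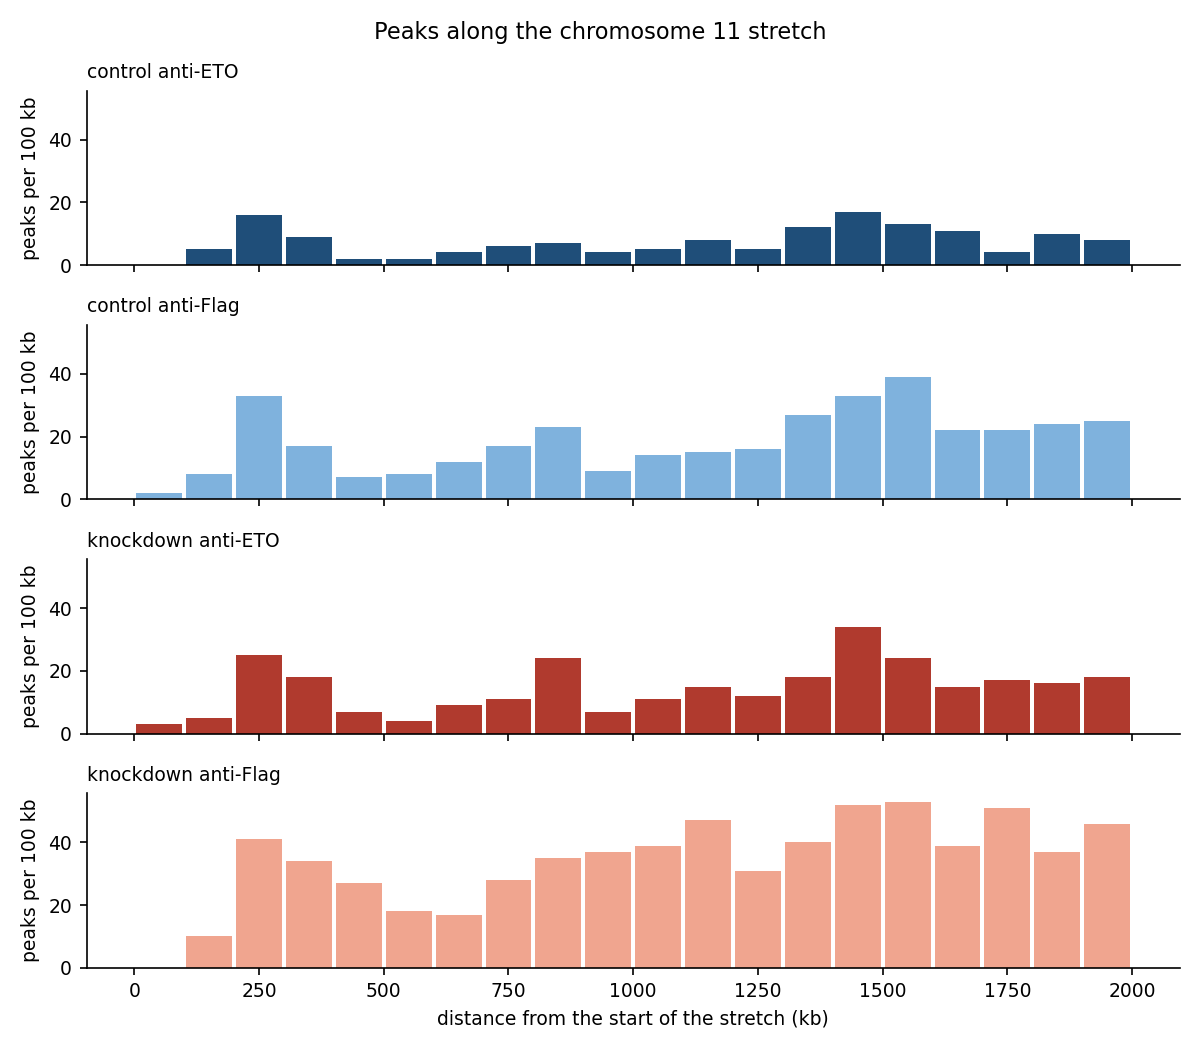
Peaks per 100 kb (y axis) against the distance from the left end of the stretch in kb (x axis), one panel for each single-antibody list. All 4 panels have a first high stretch at 200 kb. The highest bin is at 1400 kb for both anti-ETO lists and at 1500 kb for both anti-Flag lists. Knockdown anti-Flag reaches 53 peaks in a bin and control anti-ETO 17.

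The left edge was nearly empty. The first bin, over MACROD1 and FLRT1 (a transmembrane protein of cell adhesion), held 4 merged regions and no knockdown anti-Flag peak. The 2 longest gaps without a region, 57.2 and 51.2 kb, lay over the same genes. In the bin that begins at 200 kb, 12 coding genes from FERMT3 to KCNK4 begin, and the lists held 16 control anti-ETO, 33 control anti-Flag, 25 knockdown anti-ETO and 41 knockdown anti-Flag peaks.

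Gene-poor bins differed from each other. The bin at 400 kb has no coding gene start and held 2 control anti-ETO and 7 control anti-Flag peaks, against 7 and 27 in knockdown. The bin at 500 kb, with the urate and organic anion transporter genes SLC22A11 and SLC22A12, held 2, 8, 4 and 18 peaks in the order control anti-ETO, control anti-Flag, knockdown anti-ETO and knockdown anti-Flag. The bin at 1400 kb also has no coding gene start, but it spans NEAT1 and the start of MALAT1 and held 17, 33, 34 and 52 peaks in that order, the highest count of any bin for both anti-ETO lists. The next bin, from the body of MALAT1 to MAP3K11, had 54 merged regions, the most in the stretch.

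The members nearest the edges were as follows, given for the lists with the fewest and the most peaks of the 4. The last peaks before the left edge were a control anti-ETO peak at chr11:63974627-63975189 (563 bp) and a knockdown anti-Flag peak at chr11:63982325-63982498 (174 bp). The first peaks inside were chr11:64166263-64166560 (298 bp) and chr11:64161826-64162022 (197 bp) in those lists. At the right edge the last knockdown anti-Flag peak inside was chr11:65999111-65999277 (167 bp) and the first beyond it was chr11:66001032-66001575 (544 bp).

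The 5 widest merged regions lay beside NEAT1 or across parts of named coding genes. The widest, chr11:65416083-65422740 (6658 bp), ends 57 bp to the left of NEAT1, the RNA scaffold of nuclear paraspeckles, and was a shared peak. Its widest single peaks were 2031 bp (control anti-ETO), 3773 bp (control anti-Flag), 4234 bp (knockdown anti-ETO) and 1596 bp (knockdown anti-Flag). The next, chr11:64203009-64208944 (5936 bp), spans the end of STIP1, a co-chaperone of HSP70 and HSP90, and the start of FERMT3, with widest peaks of 3051, 4499, 4928 and 4096 bp in the same order. Anti-ETO peaks were thus wider in knockdown at both sites, whereas the widest anti-Flag peaks were narrower.

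The other 3 of the 5 widest regions span neighbouring genes. The region chr11:64266717-64271217 (4501 bp) covers parts of PLCB3, BAD (a pro-apoptotic BCL2-family protein) and GPR137, with widest peaks of 2061, 3219, 2605 and 3485 bp. The region chr11:65857814-65861561 (3748 bp) covers parts of CFL1 (cofilin, which severs actin filaments) and MUS81 (a DNA structure-specific nuclease). It consisted of 1 peak each in control anti-ETO (3196 bp), control anti-Flag (2954 bp) and knockdown anti-ETO (3748 bp), and of 4 knockdown anti-Flag peaks of at most 693 bp. The region chr11:65887545-65891094 (3550 bp), at FIBP and CCDC85B, held 1 knockdown anti-ETO peak of 3465 bp and 3 control anti-ETO peaks of at most 632 bp.

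Gene by gene, a peak was assigned to every gene whose body, or the 1 kb on either side, held its centre. For a gene that crosses the right edge, this includes peaks past that edge, which are not members of the stretch. Of the 139 genes whose lower coordinate lies in the stretch, 122 had a merged region. The share of all genes in the genome with a merged region is not given here, so this count is a description of a stretch chosen for its peaks. Peaks called by both antibodies (dual-antibody peaks) were at 94 genes in control, 67.6% of them, against 17.1% of all genes in the genome, and at 102 genes in knockdown, 73.4%, against 15.4%. The 4 genes with a control dual-antibody peak alone were FAU, MRPL49, NRXN2-AS1 and MIR7155, and 12 genes had one in knockdown alone, among them OVOL1, MAJIN, RPS6KA4, KCNK4 and KCNK7. Of the 708 regions, 98 were assigned to 2 or more genes and 206 to none, so neighbouring genes share peaks.

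The members were grouped into 9 lists by known function, which hold 69 genes, of which 64 have their lower coordinate in the stretch. MACROD1 lies across the left edge, and SF3B2, BANF1, CATSPER1 and CST6 lie past the right edge. These 5 were not counted in these lists or among the 139 genes. For comparison, 81 of the 84 coding genes of the stretch had a merged region and 68 had a shared peak, and over all 139 genes the numbers were 122 and 90. Counts below are peaks in the order control anti-ETO, control anti-Flag, knockdown anti-ETO and knockdown anti-Flag.

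**Figure D3:**
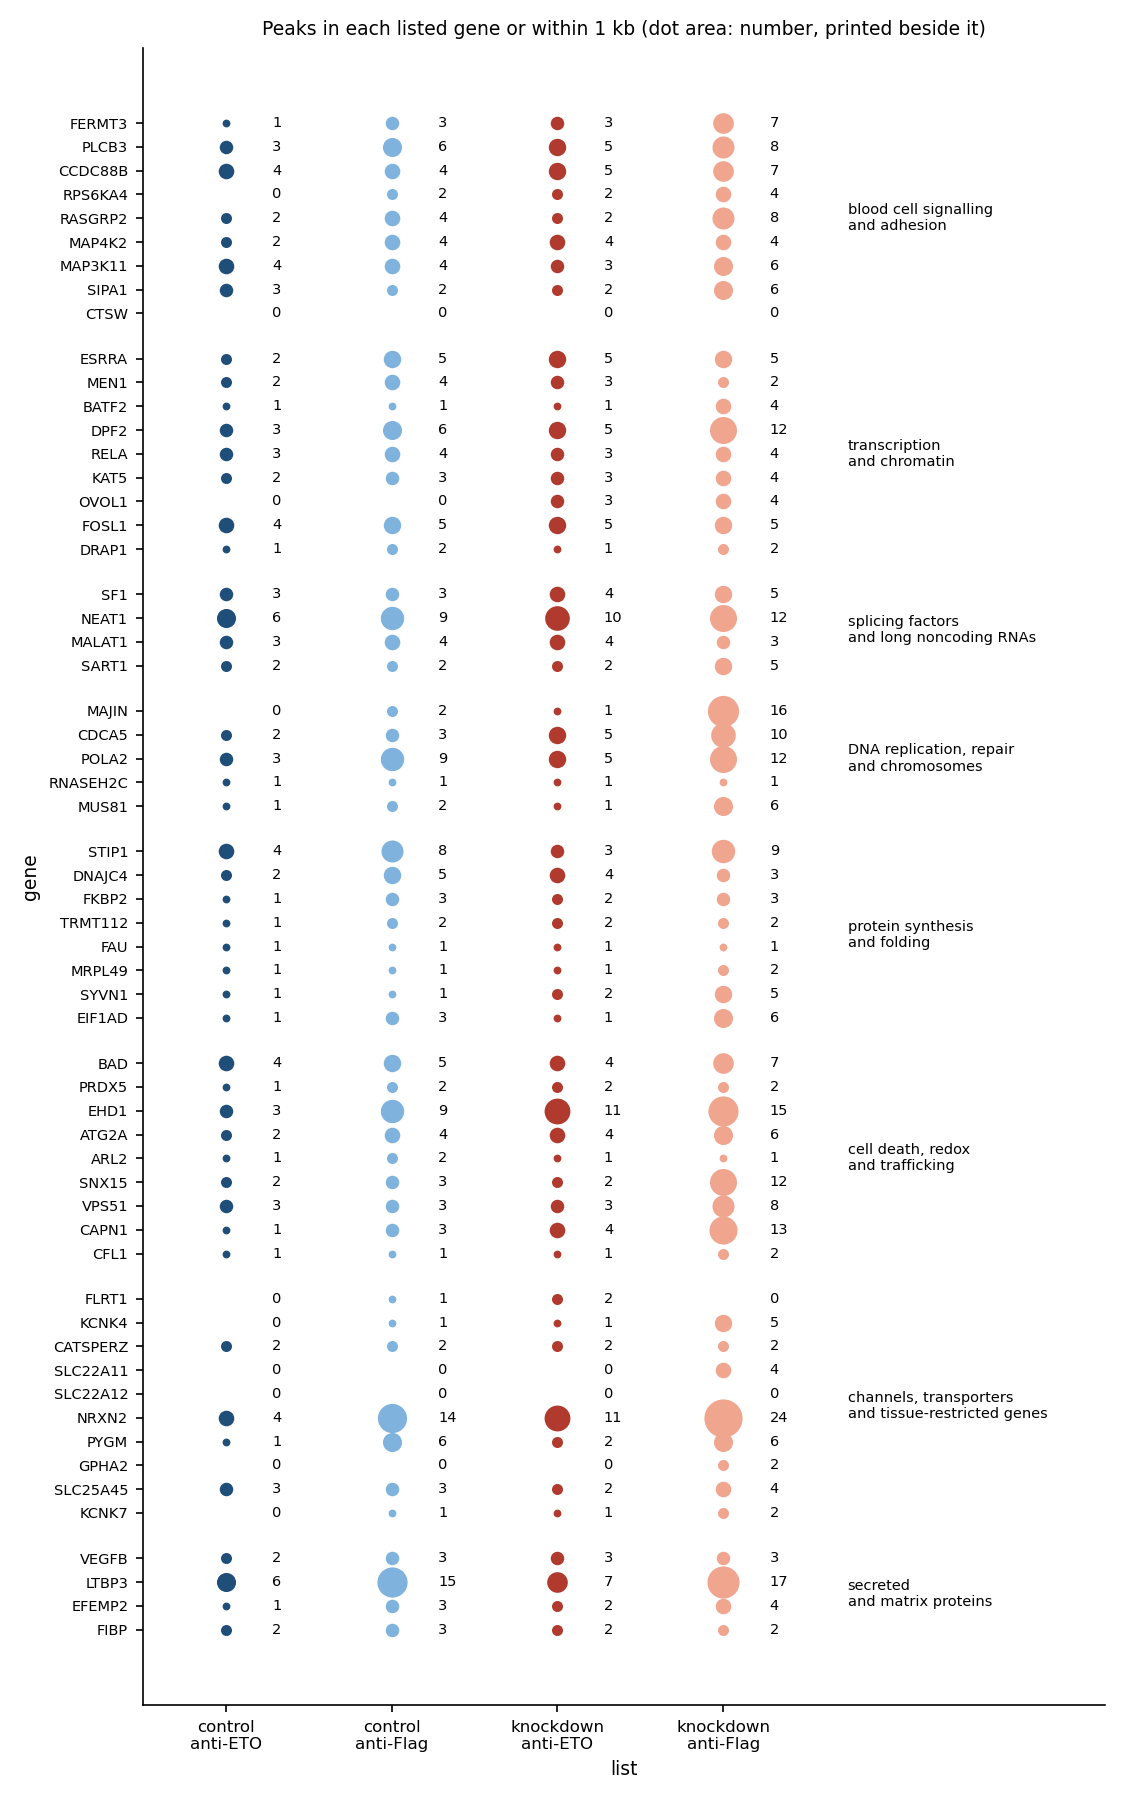
Peaks in the body of each listed gene or within 1 kb (dot area and the number beside it) in the 4 single-antibody lists (columns), for the genes named in 8 functional lists; microRNA genes are left out, since all of them are at 0. NRXN2, LTBP3, MAJIN and EHD1 have the most knockdown anti-Flag peaks, with 24, 17, 16 and 15, and SLC22A12 and CTSW have none in any list.

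Blood cell signalling and adhesion genes carried peaks in 8 of 9 cases, 7 of them with a shared peak, near the shares of all coding genes of the stretch (81 and 68 of 84). Knockdown anti-Flag peaks outnumbered control ones at 7 of the 9 and equalled them at 2. Among the 84 coding genes of the stretch they did so at 54 and 20, and the difference was not tested. CCDC88B, a haematopoietic protein of T-cell and myeloid function, had 4, 4, 5 and 7 peaks and 1 control-unique peak. PLCB3 had 3, 6, 5 and 8 peaks and 2 knockdown-unique peaks, and RASGRP2 had 2, 4, 2 and 8. FERMT3, with 1, 3, 3 and 7 peaks and 2 knockdown-unique ones, was covered over 3051, 5085, 5646 and 7663 bp, a sum that includes the wide peaks at its start. MAP4K2 and MAP3K11, kinases upstream of JNK, had 2, 4, 4 and 4, and 4, 4, 3 and 6 peaks, the latter with a control-unique peak. RPS6KA4, a nuclear kinase that phosphorylates histone H3, had 0, 2, 2 and 4 and 1 knockdown-unique peak. CTSW, a protease of cytotoxic lymphocytes, had no peak in any list.

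Transcription and chromatin genes all carried regions, and 8 of 9 a shared peak (coding genes of the stretch 68 of 84). DPF2, a subunit of BAF chromatin remodelling complexes, had the most, with 3, 6, 5 and 12 peaks and 2 knockdown-unique peaks. ESRRA, an orphan nuclear receptor of energy metabolism, had 2, 5, 5 and 5. FOSL1, an AP-1 subunit, had 4, 5, 5 and 5 peaks and 4 shared ones, nearly the same in every list. RELA had 3, 4, 3 and 4 peaks, 2 shared and 1 control-unique. OVOL1, an epithelial zinc finger repressor, had no control peak of either antibody, against 3 anti-ETO and 4 anti-Flag peaks in knockdown, and 3 knockdown-unique peaks. MEN1 (menin, a cofactor of KMT2A histone methyltransferases) was the one gene of this list with fewer anti-Flag peaks in knockdown, with 2, 4, 3 and 2.

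The splicing and long noncoding RNA genes had shared peaks in 4 of 4 cases (all genes of the stretch 90 of 139). NEAT1 had 6, 9, 10 and 12 peaks with 15 merged regions, 1 control-unique and 2 knockdown-unique peaks, and its covered length was 3318, 5973, 5154 and 5007 bp. The count of merged regions leaves out the 6658-bp region on its left, whose centre lies over 1 kb away. Peak counts and covered length go by the centre of each single peak, so a peak of that region centred within 1 kb of NEAT1 would be included. MALAT1, an abundant nuclear RNA, had 3, 4, 4 and 3 peaks. SF1, a branch point binding protein of early spliceosomes, had 3, 3, 4 and 5, and the splicing factor gene SART1 2, 2, 2 and 5.

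Among replication, repair and chromosome genes MAJIN had the most regions. MAJIN, which anchors telomeres to the nuclear envelope in meiosis, had 0, 2, 1 and 16 peaks over 33.9 kb, and 14 of its 17 regions were called by knockdown anti-Flag alone. Its covered length was 0 bp in control anti-ETO, 557 bp in control anti-Flag, 262 bp in knockdown anti-ETO and 9553 bp in knockdown anti-Flag. POLA2, a subunit of DNA polymerase alpha, had 3, 9, 5 and 12 peaks with 1 control-unique and 2 knockdown-unique peaks. CDCA5 (sororin, which protects sister chromatid cohesion) had 2, 3, 5 and 10 and 3 knockdown-unique peaks. RNASEH2C, a subunit of RNase H2, had 1 peak in each list.

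Genes of protein synthesis and folding, all of them coding, had a median of 3.0 merged regions. The median was 4.0 for the coding genes of the stretch and 3.0 for all 139 genes. FAU and MRPL49, which encode a ribosomal protein made with a ubiquitin-like part and a mitochondrial ribosomal protein, share a control-unique peak between them, had 1, 1, 1 and 1, and 1, 1, 1 and 2 peaks, and had no shared peak. The other 6 genes of the list had one. STIP1 had the most with 4, 8, 3 and 9, and DNAJC4 had 2, 5, 4 and 3. SYVN1, a ubiquitin ligase of the endoplasmic reticulum, had 1, 1, 2 and 5, and EIF1AD 1, 3, 1 and 6. EIF1AD crosses the right edge, and its anti-ETO peaks and its shared peak lie past that edge, outside the stretch.

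Cell death, redox and trafficking genes had shared peaks in 10 of 10 cases (coding genes of the stretch 68 of 84). EHD1, which drives recycling of endosomes, had 3, 9, 11 and 15 peaks and 5 knockdown-unique peaks, the second highest number at any gene. CAPN1, a calcium-dependent protease, had 1, 3, 4 and 13 peaks, and SNX15, a sorting nexin of endosomes, 2, 3, 2 and 12. At CAPN1 10 of 14 regions and at SNX15 8 of 11 were called by knockdown anti-Flag alone. VPS51, a tethering factor subunit, had 3, 3, 3 and 8, and BAD had 4, 5, 4 and 7.

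Channels, transporters and tissue-restricted genes had a shared peak at 4 of 10 genes, against 68 of 84 coding genes of the stretch, a difference that was not tested. NRXN2, a synaptic adhesion gene of 117 kb, had the highest number of regions in the stretch, 27, with 4, 14, 11 and 24 peaks, 1 control-unique and 7 knockdown-unique. PYGM, the muscle glycogen phosphorylase, had 1, 6, 2 and 6 peaks, and KCNK4, a potassium channel, 0, 1, 1 and 5. SLC22A11 and GPHA2, a hormone subunit, had 4 and 2 knockdown anti-Flag peaks and none in the other lists. SLC22A12, the renal urate transporter, had none.

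Among secreted and matrix proteins LTBP3, which binds latent TGF-beta, led with 6, 15, 7 and 17 peaks and 4 knockdown-unique peaks. Its covered length was 4073, 8987, 7677 and 9935 bp, so that anti-ETO covered more in knockdown with nearly the same peak number. VEGFB, an endothelial growth factor, had 2, 3, 3 and 3. FIBP, counted in this list although its protein is intracellular, had 2, 3, 2 and 2. Of the 36 coding genes with a knockdown-unique peak, NRXN2 and EHD1 had the most, followed by LTBP3 and the unlisted LOC124902693 with 4 each. Listed genes with fewer, and not described above, were ATG2A with 2 (peaks 2, 4, 4 and 6) and KAT5, TRMT112, PRDX5 and EFEMP2 with 1 each. STIP1, DNAJC4, SYVN1, BAD, CAPN1, ESRRA, MAJIN, PYGM, KCNK4, KCNK7 and VEGFB also had 1 each.

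The 5 listed microRNA genes, MIR192, MIR194-2, MIR612, MIR1237 and MIR4690, had no peak centre within 1 kb. The hairpin of the unlisted MIR10392 was overlapped by the region chr11:64876914-64878590 of EHD1, which was called in all 4 lists. Its mature strand hsa-miR-10392-3p (RefSeq, minus strand, seed in capitals) is shown because it lies wholly inside that region.
hsa-miR-10392-3p, chr11:64878523-64878546: cCGGCCCCgccucggcuccgcacc

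Peaks at gene starts were mostly the shared ones. Of the 88 genes with a start window, 61 (69.3%, 59.0 to 78.0) had a window overlapped by a shared peak, against 17.5% of all genes in the genome. The 88 were taken by start site, so they include MACROD1 and leave out EIF1AD, unlike the genes counted by lower coordinate above. A knockdown-unique peak overlapped a window of 5 genes (5.68%, 2.45 to 12.6, genome 2.46%), and a control-unique peak a window of 4 (4.55%, 1.78 to 11.1, genome 4.88%). The 5 were VEGFB, LTBP3, CAPN1, CAPN1-AS1 and LINC02724, and the 4 were RELA, POLA2, FAU and MRPL49. Since the stretch was chosen for its many peaks, its share of starts with a peak is a description.

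Most starts of the stretch were called in all lists or none. A merged region overlapped a start window of 80.7% of the 88 genes, against 30.4% of the 27107 other genes. All 4 lists overlapped a window of 57 genes (64.8%), among them FERMT3, PLCB3, RASGRP2, SIPA1, MEN1, RELA, EHD1 and MUS81, and 17 genes had no list at their start. Those 17 included MAJIN, RPS6KA4, KCNK4, KCNK7, EFEMP2, VPS51 and SLC22A12, so the regions of MAJIN lay away from its start. SF1 and RNASEH2C had every list but knockdown anti-Flag at the start, and CFL1 had the anti-ETO lists only. BATF2, a basic leucine zipper factor induced by interferon, had knockdown anti-Flag only.

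Coverage around the starts differed between the lists. Exactly at the start base 55.7% of the 88 genes were covered by control anti-ETO, 53.4% by control anti-Flag, 67.0% by knockdown anti-ETO and 45.5% by knockdown anti-Flag. At 5 kb before the start the shares were 9.09%, 14.8%, 14.8% and 28.4%, and at 5 kb after it 12.5%, 13.6%, 15.9% and 25.0%. Knockdown anti-Flag was thus the lowest of the 4 at the start and the highest at these distances, though not at every distance: at 4.75 kb after the start it was at 13.6%, against 15.9% for control anti-Flag. Over the 27107 other genes it was also the lowest at the start (7.67%, against 14.3%, 12.5% and 17.3%), and at 5 kb before it the 4 lists were between 0.775% (control anti-ETO) and 1.47% (knockdown anti-Flag). The start windows of neighbouring genes lie close together here, so 1 peak can count for several genes.

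**Figure D4:**
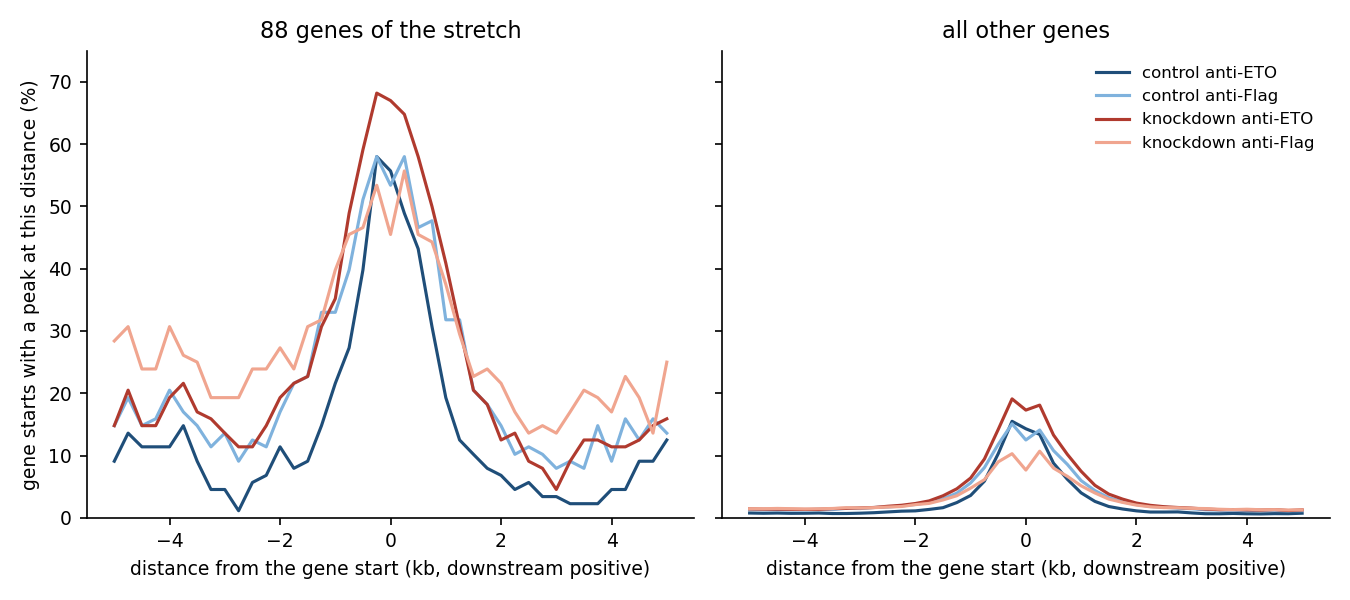
Share of gene starts covered by a peak (y axis, percent) against the distance from the start in kb (x axis, downstream positive), for 88 genes of the stretch (left) and 27107 other genes (right), one line per list. In the stretch knockdown anti-Flag is lowest at the start (45.5%) and highest at the points 5 kb on either side (28.4% and 25.0%), though not at every distance between; elsewhere all lists are under 1.5% at 5 kb before the start.

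Position relative to genes differed between the classes. The centres of shared peaks lay within 1 kb of a gene's start or end in the gene table at 59.3% (50.3 to 67.8), close to the 60.3% of shared peaks elsewhere. Regions in all 4 lists did so at 58.8% and regions of knockdown anti-Flag alone at 13.8% (10.5 to 18.1), against 14.6% elsewhere. The smaller classes lay between these, with 35.0% (18.1 to 56.7) for the 20 regions of knockdown anti-ETO alone and 20.6% (10.3 to 36.8) for the 34 of control anti-Flag alone. Knockdown-unique peaks did so at 15.7% (10.1 to 23.8), against 32.4% (31.0 to 33.7) elsewhere, and 5 of the 10 control-unique peaks did. Over all merged regions the share was 23.4% (20.5 to 26.7), against 38.8% elsewhere. Of the knockdown-unique peaks, 59 of 108 (54.6%) lay inside a gene away from its boundaries and 32 (29.6%) outside genes.

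**Figure D5:**
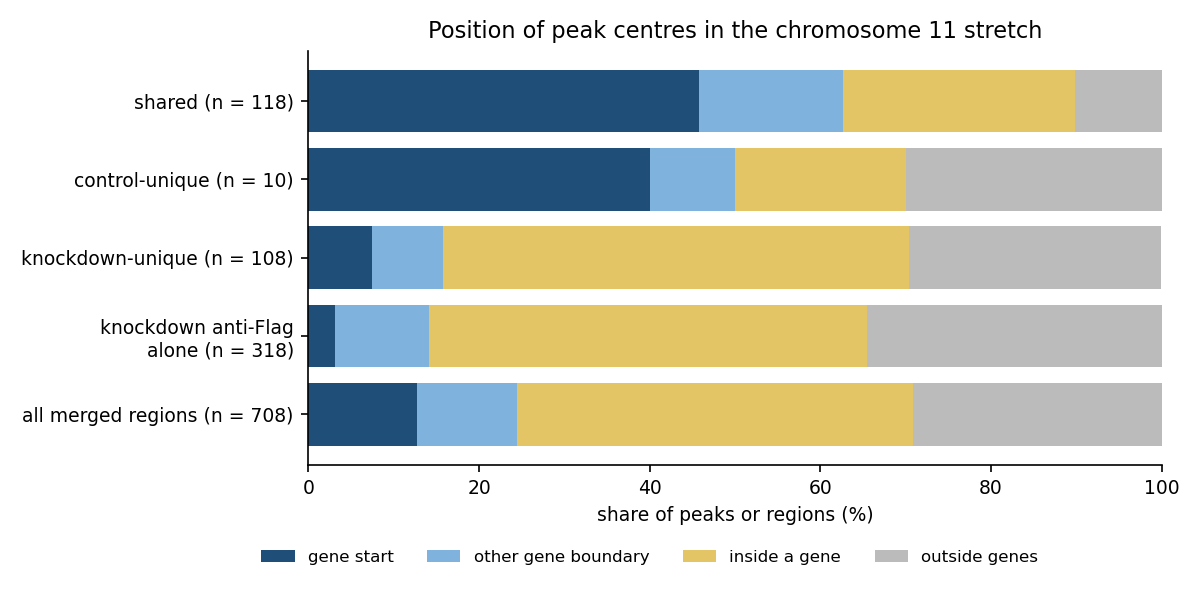
Share of peak or region centres (x axis, percent) within 1 kb of a gene start, within 1 kb of another gene boundary, elsewhere inside a gene, or outside genes, for 5 sets in the stretch. Shared peaks are at starts in 45.8% of cases and knockdown-unique peaks in 7.41%; 51.3% of the regions of knockdown anti-Flag alone are inside genes.

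The unique lists were unequal, with 108 knockdown-unique against 10 control-unique peaks, and in the genome 4617 against 3059. Other dense windows were unequal as well: knockdown-unique peaks made up 91.5% of the unique peaks of the stretch, which ranked 13 of 81 with a window median of 79.3%. Most of these sites were not without a call in the other condition. Of the knockdown-unique peaks 73 (67.6%, 58.3 to 75.7) lay on a control call of anti-Flag alone, 1 on one of anti-ETO alone, and 34 (31.5%, 23.5 to 40.7) on neither. In the rest of the genome 54.8% of them lay on anti-Flag alone, 5.94% on anti-ETO alone and 38.3% on neither. Of the 10 control-unique peaks 7 lay on a knockdown call of anti-ETO alone, 1 on one of anti-Flag alone and 2 on neither. These shares were near those elsewhere, where 74.7% lay on anti-ETO alone and 20.2% on neither. With all 4 lists at equal length there were 47 knockdown-unique and 15 control-unique peaks.

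The widest knockdown-unique peak was chr11:64213771-64215499 (1729 bp) inside FERMT3. Its knockdown anti-Flag peak had 1729 bp, its knockdown anti-ETO peak 416 bp and the control anti-Flag peak within it 402 bp. The second, chr11:65925175-65926842 (1668 bp), lay 3611 bp from DRAP1, a corepressor of transcription, with a control anti-Flag peak of 886 bp. The one after it, chr11:64233005-64234393 (1389 bp), ends in the first bases of the VEGFB window shown above and overlaps DNAJC4. All of them held a control anti-Flag peak and no control anti-ETO peak.

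The widest control-unique peak was chr11:64762993-64763871 (879 bp), 734 bp from SF1. It had a control anti-Flag peak of 879 bp, a control anti-ETO peak of 180 bp and a knockdown anti-Flag peak of 258 bp. The next, chr11:64492539-64493115 (577 bp), lay outside genes and had a knockdown anti-ETO peak of 380 bp. The third widest, chr11:65663913-65664454 (542 bp), overlapped the farther upstream of the RELA starts, whose window is shown above, and the divergent transcript RELA-DT. Its anti-ETO peak measured 247 bp in control and 297 bp after knockdown, and it had no knockdown anti-Flag peak, whereas the other RELA window lay in a shared peak with calls in all 4 lists.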

How the data were processed

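CUT&RUN libraries of Kasumi-1 cells (anti-ETO, anti-Flag and IgG, control and miR-130a knockdown) were selected for fragments of 150 to 400 bp and sequenced with paired 75-bp reads to a planned depth of about 40 M reads, per the labels' protocols. The authors deposited 9 interval lists with chromosome, start and end and no other value. The submitters' processing notes name fastp 0.19.5, Bowtie2 2.3.5, MACS2 2.2.5, HOMER 4.8 and the builds hg38 and sacCer3. Thresholds, use of IgG and pooling of libraries are not given in the sources used here, and a more permissive call or a deeper library lengthens a list. The derived lists were matched by an overlap of at least 100 bp for 3059 of 3059 control-unique, 4616 of 4617 knockdown-unique and 8715 of 8731 shared intervals.

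Intervals were compared in Python 3.11.15 at an overlap of at least 1 bp, with 95% Wilson intervals from scipy 1.17.1. Genes and start windows came from RefSeq tables of GRCh38.p14, and 88 genes of the stretch matched a window. The depth behind each peak is unknown, and replicates of a group share 1 list, so no test was made. The functions were tested on 2000 simulated intervals, recovering 1200 of 1200 planted overlaps. Named genes are those with the most regions in each functional list, with unique peaks or with none, beside the widest regions. The stretch, its members and the gene lists were chosen with earlier results of these data known. Alternatives tried were keeping the wider 50% of each list, cutting the 4 lists to equal length by width, the stretch moved by 100 kb, and other overlap, gap, boundary and flank distances. In the lists, 1 gene is counted but not reported here by name.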

Additional observations from a re-analysis of the deposited data

How the results depend on the processing

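Of 49 alternative values for 12 results, 31 stayed within the interval of the reported value or, for counts, within 1.5 times of it. Only the knockdown to control ratios, the overlap difference and the difference in unique peaks could reverse direction, and none of them did. Plain counts and shares could not. The cut to equal length leaves the control anti-ETO list as it is, so its count could not change there. With the 4 lists at equal length (14264 peaks) the stretch held 225 control anti-Flag, 190 knockdown anti-ETO and 395 knockdown anti-Flag peaks, the anti-ETO ratio was 1.28, the anti-ETO to anti-Flag overlap differed by -6.86 percentage points, unique peaks differed by 32, regions in all 4 lists made up 24.5% and regions near a gene boundary 27.8%. With the wider 50% of each list the counts were 82 control anti-ETO, 183 control anti-Flag, 153 knockdown anti-ETO and 374 knockdown anti-Flag peaks, unique peaks differed by 60 and the boundary share was 27.2%. Allowing gaps of 500 bp gave -6.83 percentage points and 20.3% in all 4 lists. The boundary share was 42.5% at 2.5 kb and 16.8% with protein-coding genes only. Genes with a dual-antibody peak numbered 68 in control and 83 in knockdown for gene bodies alone, and 123 and 133 within 10 kb. Moving the stretch by 100 kb changed none of these results beyond its interval or 1.5 times. No paired analysis was possible because the lists carry no replicate numbers, and for the same reason no library could be left out. The number of peaks in a list depends on depth and threshold, which are unknown here.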
